A study of Mus musculus with 30 samples.

Results

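The genes described here are the claudins and the other genes of the tight junction that the array table holds. They were chosen by symbol alone: all 32 genes named as numbered claudins and 15 other genes by name, among them Tjp1, Tjp3, Ocln, Marveld2, Marveld3, F11r, Jam2, Jam3, Cgn, Cgnl1, Pard3, Pard6b, Patj and Crb3. This gave 47 genes of the 23986 measured.

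Tight junctions close the space between neighbouring epithelial or endothelial cells. Claudins are the membrane proteins that form the junction strands and decide which ions and how much water pass between the cells, so that each segment of the nephron, the filtering and reabsorbing unit of the kidney, carries its own combination of them. Occludin and its relatives and the junctional adhesion molecules lie in the same membrane, scaffold proteins tie them to the actin cytoskeleton, and polarity proteins place the junction at the border between the apical and the lateral membrane. In the embryo, tubule epithelium arises from mesenchyme that acquires these junctions.

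RNA of 10 groups of mouse cells and tissues was hybridised to 30 Affymetrix Mouse Gene 2.0 ST arrays, with 3 arrays per group, to follow a stepwise differentiation of embryonic stem cells (ESCs) toward kidney and to compare its products with kidneys. The cultured groups were ESCs of 1 line kept on feeder cells with leukemia inhibitory factor, mesoderm cells made from them with Bmp4, activin A and Fgf2 after priming with Fgf2 and activin A, intermediate mesoderm (IM) cells made with retinoic acid, activin A and the ROCK inhibitor Y27632, and renal progenitors grown on with Bmp7 and Fgf2. Mesoderm cells, IM cells and progenitors were grown as monolayers. The organoids, harvested on day 8, 14 or 21 and written 8D, 14D and 21D here, were made from dissociated progenitors aggregated on a filter at an air-liquid interface, in medium with serum throughout, which held Y27632 at first, then CHIR99021 and Bmp7, and then neither. The tissues were freshly dissected whole kidneys of embryos at E12.5 and E13.5 and of adults. No group carried a transgene, and the strain, the age of the adults and whether replicates were separate cultures or animals were not given in the sources used here, so p-values measure the spread between these arrays, which may be technical. The labels place replicate 1 of ESCs, mesoderm cells, IM cells, progenitors and E13.5 kidneys in batch 1 and the other 25 arrays in batch 2.

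All values are log2 intensities as normalised by the authors, and array values are given in the order of replicates 1 to 3. A difference is called when its adjusted p is under 0.05, from limma fitted to all 23986 genes and all 30 arrays with batch as a term and Benjamini-Hochberg adjustment over all genes. As a gauge of background, the 95th percentile of 1373 olfactory and vomeronasal receptor genes was taken on each array; it lay between 4.99 and 5.62. A gene is described as above background in a group when all 3 arrays exceeded their own gauge, and a fold change with a group that is not is measured against background values. The defining markers matched the labels in part. The 3 mesoderm markers were all above background in mesoderm cells, but also in ESCs, IM cells and every organoid group. Of these markers only T was called higher in mesoderm cells than in ESCs. All 4 nephron progenitor markers were above background in E12.5 and E13.5 kidneys, and also in 14D and 21D organoids. All 5 proximal tubule and 3 thick ascending limb markers were above background in adult kidneys. Pax2 was not above background in IM cells, nor were Six2 and Pax2 in renal progenitors. All 4 pluripotency markers were above background in ESCs, mesoderm cells, IM cells and organoids, and 3 of the 4, all but Zfp42, in progenitors. In E12.5, E13.5 and adult kidneys 1 of the 4, Pou5f1, was above background, so that it was above background in all 10 groups. Bulk arrays cannot tell fewer cells of a type from less RNA per cell.

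Of the 47 genes, 18 were above background in all 10 groups, 17 in some and 12 in none. The 18 included the scaffold genes Tjp1, Tjp3 and Cgnl1, all 3 junctional adhesion molecules, and Cldn1, Cldn3, Cldn4, Cldn11, Cldn12 and Cldn19. The 12 not above background anywhere were Cldn14, Cldn17, Cldn20, Cldn24 and 8 of the claudin-34 genes, which lie on the X chromosome in mouse. Renal progenitors had 20 genes above background, against 24 to 31 in the other 9 groups. The share of all genes above background was also lowest in progenitors, at 51%, against 56.3% to 61% in the other groups. Progenitor replicates 1 and 2 had the highest gauges of the 30 arrays, 5.62 and 5.47, and the part of this in the count was not tested. Progenitors also held the lowest mean of any group for 15 of the 47 genes. The highest mean lay in adult kidneys for 19 genes and in IM cells for 11. In all, 38 genes were called in 1 or more of 13 comparisons, and 30 of them with a change of at least 2-fold. In the map of the genes the progenitor columns are blue for most scaffold, occludin-type and polarity genes.

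**Figure D1:**
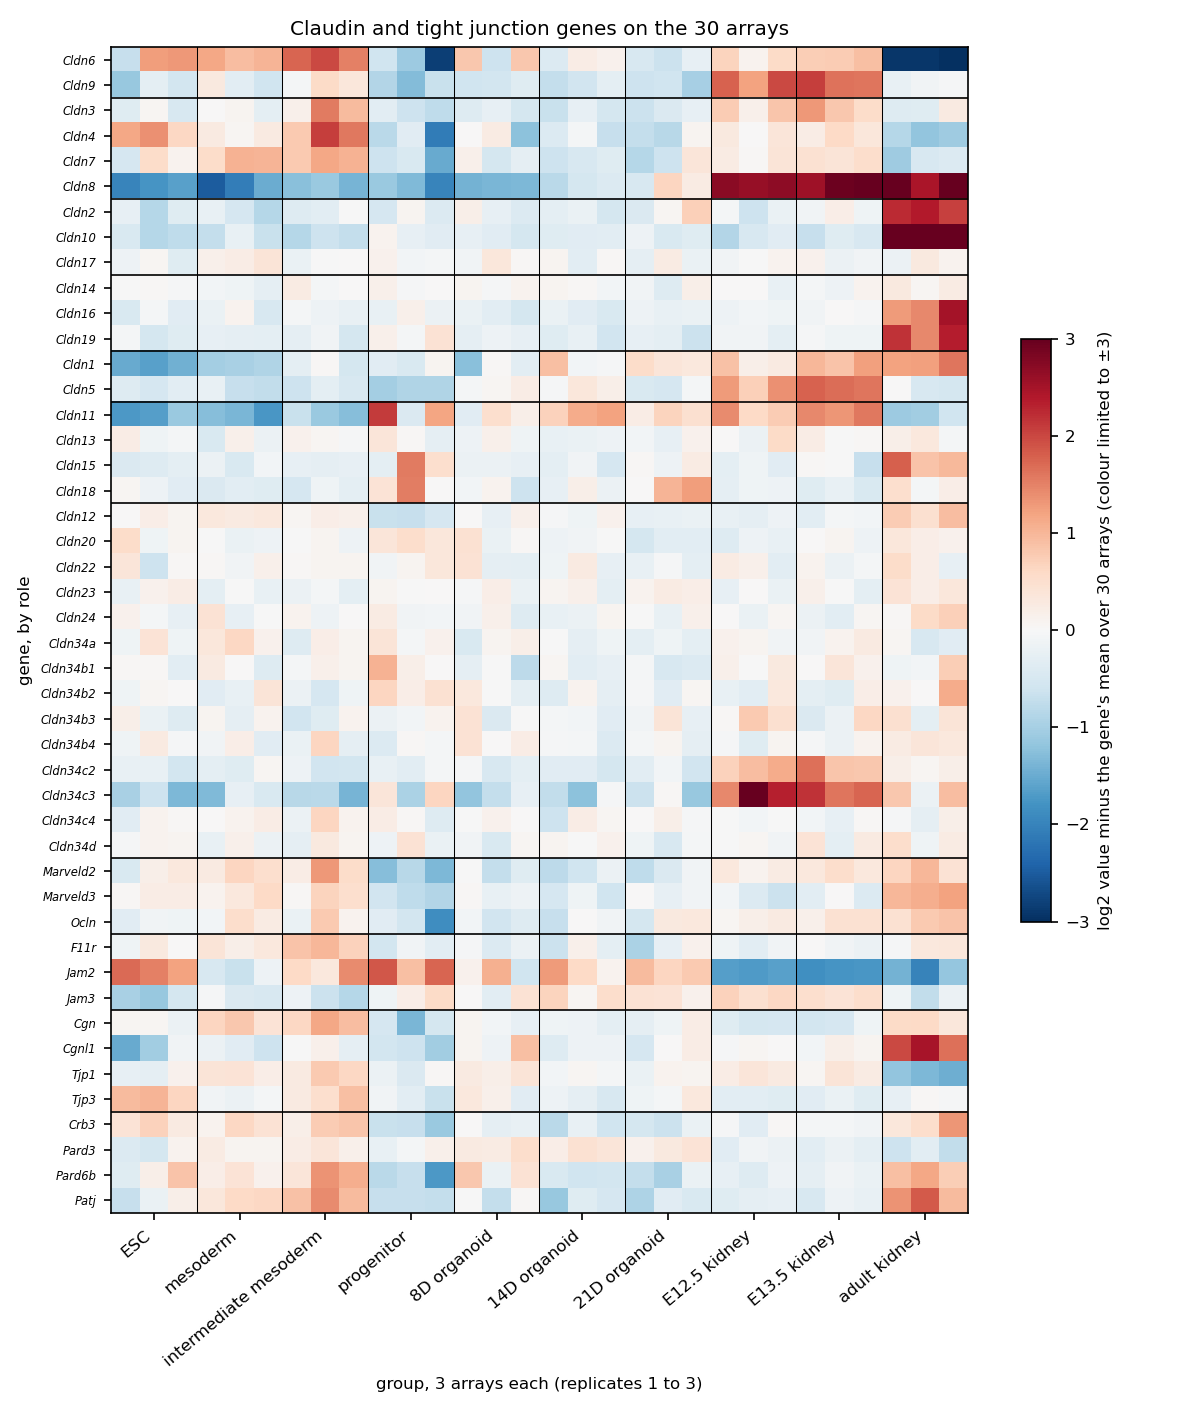
Log2 value of 46 of the 47 genes on each of the 30 arrays, minus that gene's mean over all arrays; genes run down the page by role, columns are arrays in groups of 3, and red is above and blue below the gene's own mean, with colour limited to 3 either way. Of all 47 genes, progenitors have the lowest group mean for 15 and adult kidneys the highest for 19.

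Few tight junction genes changed in the first steps of differentiation. In mesoderm cells 5 of the 47 were called against ESCs (11.7% of all genes were): 3 were higher (5.86% of all genes) and 2 lower (5.8%). Jam2, a junctional adhesion molecule of endothelial and other cells, fell most. It measured 7.63, 7.42 and 7.95 in mesoderm cells, against 9.80, 9.62 and 9.31 in ESCs. The groups did not overlap, and the difference was 3.76-fold (log2 fold change -1.91 ± 0.34 SE, limma adjusted p = 0.00064). Tjp3, the zonula occludens scaffold that is largely restricted to epithelia, was also lower, by 0.99 on the log2 scale (adjusted p = 0.000626). Tjp3 measured 6.53, 6.46 and 6.58 in mesoderm cells, against 7.58, 7.66 and 7.28 in ESCs. The 3 higher calls, Patj (log2 fold change 0.75), Cgn (0.64) and Tjp1 (0.46), were each lost in batch 2 arrays alone (adjusted p = 0.275, 0.106 and 0.254), where their log2 fold changes were 0.62, 0.66 and 0.37. They were also lost without mesoderm replicate 1, mesoderm replicate 2 or ESC replicate 1, with 2 genes called in each case, and without ESC replicate 2, with 3. None of the 32 claudins was called in this step.

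In IM cells 4 of the 47 genes were called against mesoderm cells (7.05% of all genes), all of them higher (3.15% of all genes were higher and 3.9% lower). Jam2 measured 8.71, 8.42 and 9.51 in IM cells, against 7.63, 7.42 and 7.95 in mesoderm cells (log2 fold change 1.21 ± 0.34 SE, adjusted p = 0.0318 by limma). Cldn4, a claudin of tight epithelia such as the collecting duct, measured 8.96, 10.26 and 9.76 in IM cells, against 8.44, 8.24 and 8.46 in mesoderm cells. Neither gene's groups overlapped, and Cldn4 differed by 1.28 ± 0.38 SE (adjusted p = 0.0414). Cldn3, another claudin of tight epithelia, and Tjp3 were higher by 0.96 and 0.67. Few of these calls held with 1 array fewer: without mesoderm replicate 1, mesoderm replicate 2 or IM replicate 3 the count was 0, without IM replicate 2 it was 1 and without mesoderm replicate 3 it was 2. Over all alternatives run the log2 fold change of Cldn4 lay between 0.99 and 1.67 and that of Jam2 between 0.86 and 1.44. In batch 2 arrays alone Cldn4 differed by 1.66 on the log2 scale (adjusted p = 0.0508) and Jam2 by 1.28 (adjusted p = 0.124).

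The step to renal progenitors moved many more of these genes. Of the 47, 25 were called between progenitors and IM cells (53.2%, against 26.5% of all genes tested). In progenitors 18 were lower (38.3%, against 15.9% of all genes) and 7 higher (14.9%, against 10.7%). The lower genes included both claudins of embryonic epithelia, 3 of 4 claudins of tight epithelia, all 3 occludin-type genes, the scaffold genes Cgn, Tjp1 and Tjp3, and 3 of 4 polarity genes.

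Cldn6, a claudin of pluripotent and embryonic epithelial cells, fell most. It measured 7.49, 6.99 and 5.25 in progenitors, against 9.82, 10.07 and 9.58 in IM cells. All progenitor arrays lay below all IM arrays, with progenitor replicate 3 far below the other two, and the difference was 9.50-fold (log2 fold change -3.25 ± 0.46 SE, adjusted p = 1.37e-05). Without progenitor replicate 3 the log2 fold change was -2.53 (adjusted p = 0.000107). Its neighbour on chromosome 17, Cldn9, known for its part in the inner ear, measured 5.73, 5.30 and 5.94 in progenitors, against 6.54, 7.18 and 6.93 in IM cells (log2 fold change -1.23, adjusted p = 0.000557). The claudins of tight epithelia went the same way. Cldn4 measured 7.37, 7.85 and 6.09 in progenitors, against 8.96, 10.26 and 9.76 in IM cells (log2 fold change -2.56 ± 0.38 SE, adjusted p = 2.3e-05). Cldn7, found along many epithelia on their lateral membranes too, measured 5.07, 5.23 and 4.19 in progenitors, against 6.48, 6.85 and 6.74 in IM cells. Cldn3 measured 6.99, 6.68 and 6.54 in progenitors, against 7.47, 8.87 and 8.26 in IM cells. The groups did not overlap for any of these genes, and the log2 fold changes of Cldn7 and Cldn3 were -1.86 and -1.46 (adjusted p = 2.74e-05 and 0.000292). In progenitors Cldn7 exceeded the background gauge on 0 of 3 arrays and Cldn9 on 2. Cldn8, the fourth claudin of this set, measured 5.29, 5.09 and 4.43 in progenitors, against 5.16, 5.30 and 5.03 in IM cells, and was not called. The remaining lower claudins were Cldn12 (log2 fold change -0.75, adjusted p = 3.93e-05) and Cldn5 (-0.47, adjusted p = 0.0497). Cldn5 was not above background in either group, and its call was lost without any 1 of 5 of the 6 arrays (adjusted p = 0.0669 to 0.194) and in batch 2 arrays alone (log2 fold change -0.52, adjusted p = 0.0993). Of 8 endothelial markers, 3 were higher in progenitors than in IM cells, Cdh5, Emcn and Esam, and 1, Pecam1, was lower.

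Occludin and its relatives fell as well. Marveld2, which encodes tricellulin at the meeting points of 3 cells, measured 5.45, 5.90 and 5.40 in progenitors, against 6.97, 8.04 and 7.30 in IM cells (log2 fold change -1.85 ± 0.22 SE, adjusted p = 1.45e-06). Marveld3, the third protein of this family, measured 5.53, 5.35 and 5.23 in progenitors, against 6.14, 6.76 and 6.60 in IM cells (log2 fold change -1.13). Marveld2 exceeded the gauge on 2 and Marveld3 on 1 of the 3 progenitor arrays. Ocln itself measured 7.35, 7.14 and 5.82 in progenitors, against 7.49, 8.48 and 7.79 in IM cells. Its progenitor arrays lay below the IM arrays, 2 of them by little, and its call (log2 fold change -1.15, adjusted p = 0.00636) was lost without progenitor replicate 3 or IM replicate 2, with adjusted p = 0.0588 to 0.0679.

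Among the scaffolds, Cgn, the plaque protein cingulin, measured 6.28, 5.43 and 6.26 in progenitors, against 7.41, 7.96 and 7.72 in IM cells (log2 fold change -1.71, adjusted p = 7.74e-07), and exceeded the gauge on 2 of 3 progenitor arrays. Tjp3 and Tjp1 were lower by smaller amounts, with log2 fold changes of -0.92 and -0.76. Tjp3 measured 6.53, 6.32 and 5.98 in progenitors, against 6.90, 7.14 and 7.54 in IM cells. Tjp1 stayed high on the array scale throughout, at 9.99, 9.74 and 10.22 in progenitors, against 10.45, 10.98 and 10.81 in IM cells. Cgnl1, which encodes the cingulin relative paracingulin, measured 6.65, 6.56 and 6.16 in progenitors, against 7.17, 7.34 and 6.93 in IM cells, and was not called.

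Of the polarity genes, Pard6b, a part of the Par complex at the apical border, measured 6.64, 6.76 and 5.72 in progenitors, against 7.82, 8.79 and 8.54 in IM cells (log2 fold change -2.01 ± 0.28 SE, adjusted p = 1.25e-05). Patj, a scaffold of the Crumbs complex, measured 6.23, 6.22 and 6.20 in progenitors, against 7.79, 8.35 and 7.87 in IM cells (log2 fold change -1.78). Crb3, the Crumbs protein of epithelial apical membranes, measured 6.19, 6.16 and 5.73 in progenitors, against 7.02, 7.62 and 7.69 in IM cells (log2 fold change -1.42). No progenitor array reached an IM array for these 3 genes. Pard3, the Par complex scaffold that neurons and other cells also use, measured 8.39, 8.56 and 8.76 in progenitors, against 8.84, 8.98 and 8.77 in IM cells, and was not called. F11r, the junctional adhesion molecule of epithelia and platelets, measured 8.38, 8.82 and 8.61 in progenitors, against 9.78, 9.91 and 9.62 in IM cells (log2 fold change -1.17, adjusted p = 0.000199).

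Of the 7 genes that were higher in progenitors, 3 were among the 4 claudins known mainly from other organs. Cldn11, the claudin of central myelin and of Sertoli cells, measured 9.72, 7.17 and 8.79 in progenitors, against 6.95, 6.49 and 6.34 in IM cells. All progenitor arrays were higher, but they spread over more than 2 log2 units, with replicate 2 close to IM replicate 1 (log2 fold change 1.97 ± 0.36 SE, adjusted p = 0.00024). Jam3, a junctional adhesion molecule of endothelium, smooth muscle and germ cells, measured 7.32, 7.63 and 8.01 in progenitors, against 7.30, 6.81 and 6.59 in IM cells. Its call (log2 fold change 0.75) was lost without IM replicate 2, IM replicate 3 or progenitor replicate 3 (adjusted p = 0.0529 to 0.0958). The claudins of intestine and of lung and stomach, Cldn15 and Cldn18, followed progenitor replicate 2. Cldn15 measured 5.10, 6.96 and 5.89 in progenitors, against 5.14, 5.13 and 5.14 in IM cells, groups that overlapped. Without progenitor replicate 2 the log2 fold change of Cldn15 was 0.37 (adjusted p = 0.327) in place of 0.85, and that of Cldn18 was 0.51 (adjusted p = 0.187) in place of 0.96. The other 3 higher calls, Cldn10 (0.57), Cldn34b2 (0.71) and Cldn20 (0.43), concerned genes not above background in progenitors or in IM cells, and each was lost without 1 of several arrays and in batch 2 arrays alone.

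**Figure D2:**
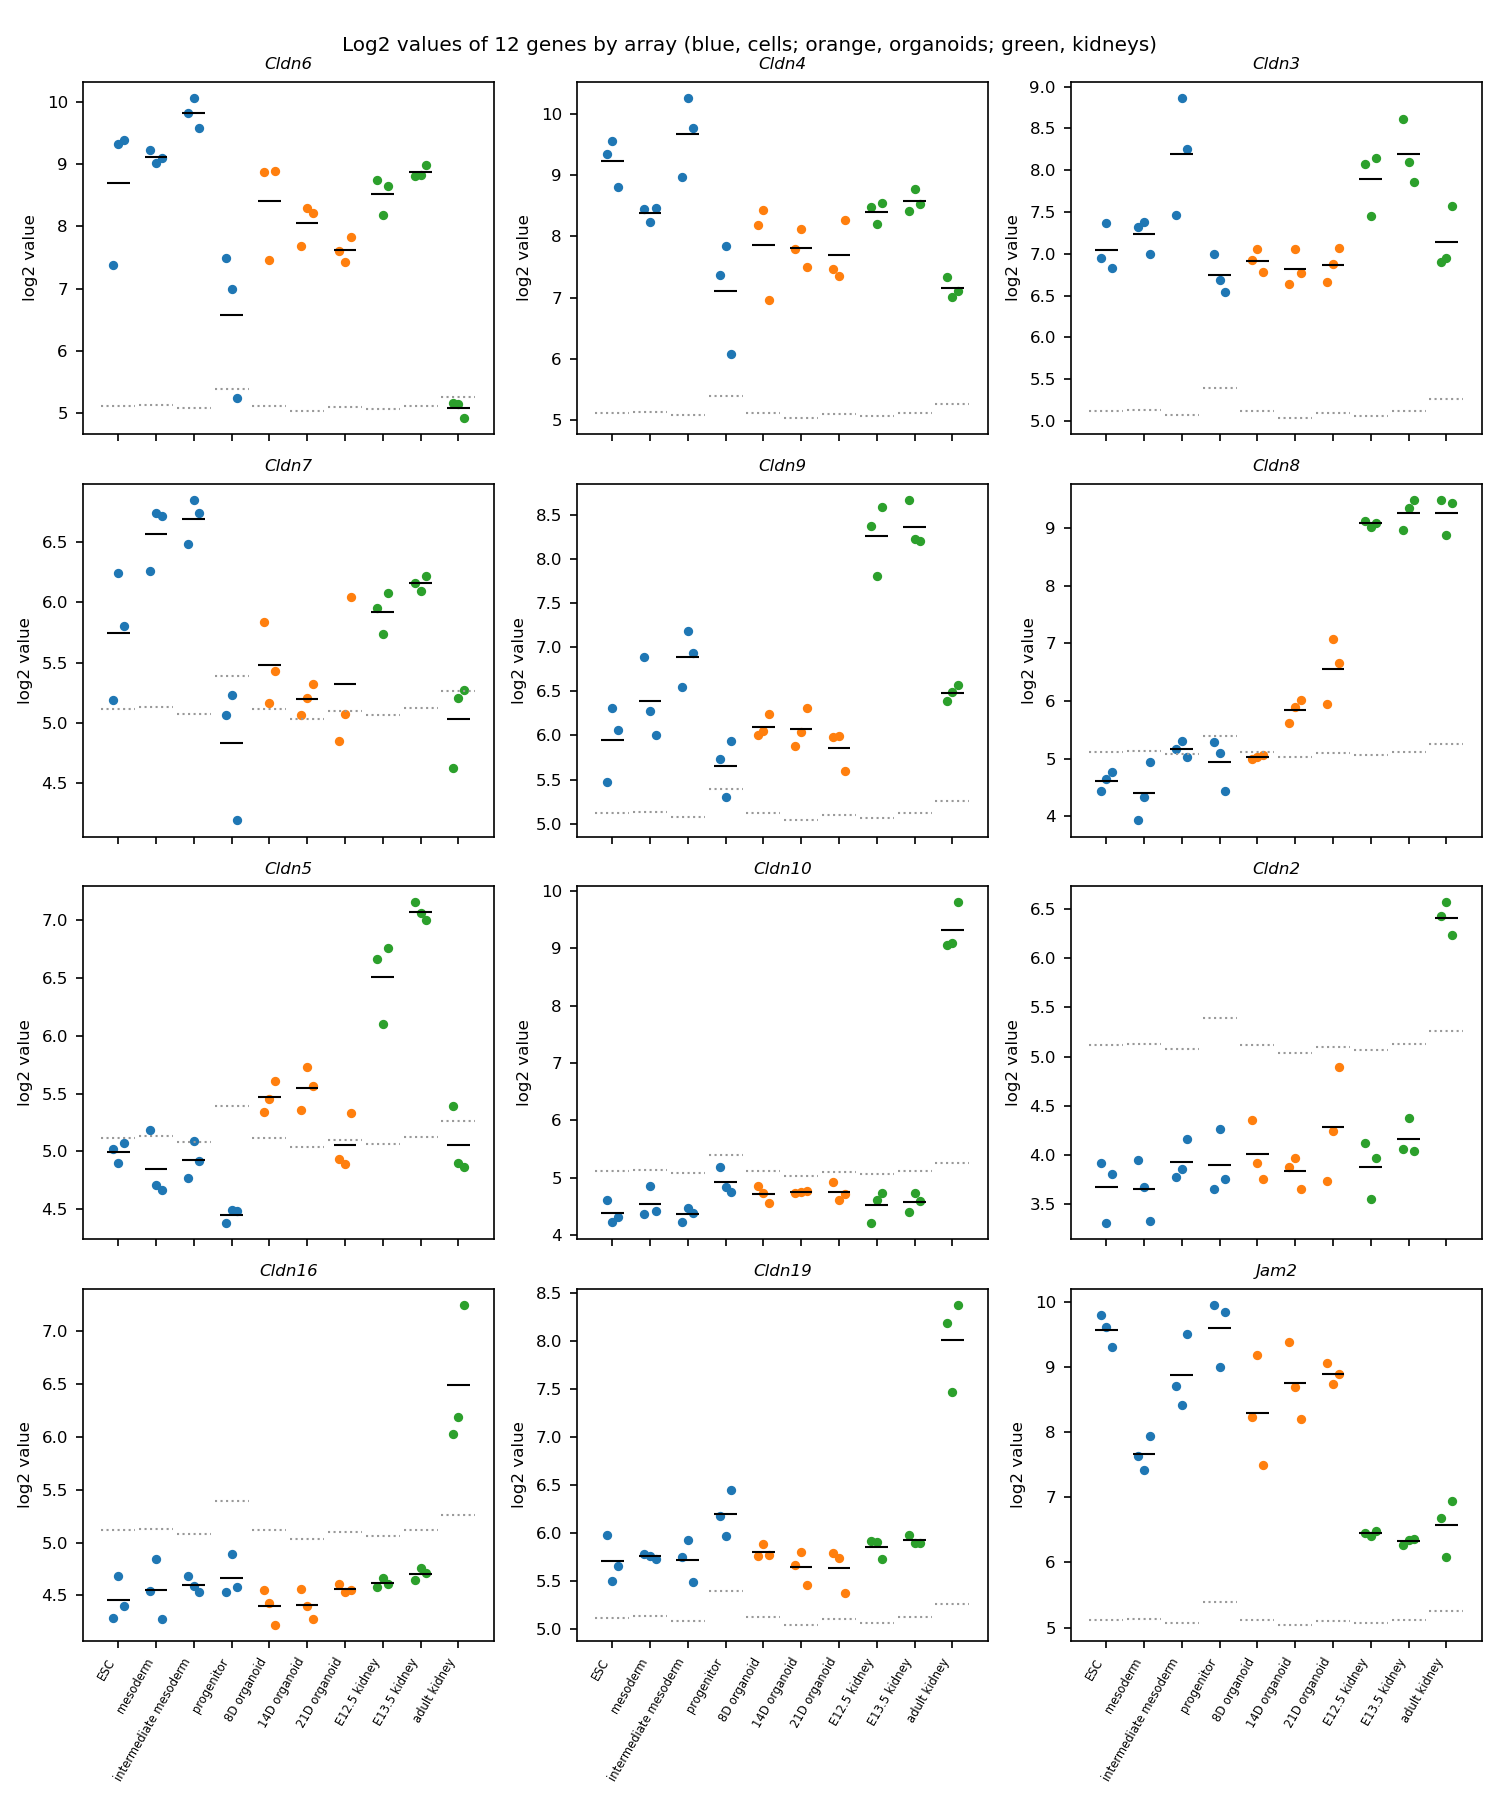
Log2 value on each array for 12 of the genes in the 10 groups. Points are arrays (replicates 1 to 3 from left to right), black bars are group means of 3 arrays, and grey dotted lines are the group mean of the background gauge; progenitors are lowest for Cldn3, Cldn4, Cldn7 and Cldn9, and Cldn2, Cldn10 and Cldn16 exceed the gauge in adult kidneys only.

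Other epithelial genes moved together with these. All 12 of a list of epithelial genes outside the tight junction were lower in progenitors than in IM cells, among them Cdh1 (log2 fold change -2.66), Epcam (-2.58) and Esrp1 (-2.46), and the mean log2 value of the list ranged over arrays from 5.66 to 7.16 in progenitors, against 8.41 to 8.99 in IM cells. Of 10 mesenchymal genes 6 were higher and 0 lower, including Snai2 (1.62), Zeb1 (1.34) and Vim (0.81), and all 4 pluripotency markers were lower. The part of these cell type changes in the tight junction result was not tested. Progenitor replicate 3 had the lowest value of all 30 arrays for many of the lower genes. These included Cldn3, Cldn4, Cldn7, Ocln, Marveld2, Marveld3, Tjp3, Crb3 and Pard6b. Without this array 20 of the 47 genes were called, as in batch 2 arrays alone. Fitted on the 6 compared arrays alone, 15 were.

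The RefSeq promoter table (build GRCm38.p6) gave windows of 300 bases, 250 before and 50 after the start, for 35 of the 47 genes, and 15 of the 18 genes lower in progenitors. These windows were searched on both strands for 7 short motifs, of which the E-box CACCTG is shown. It was picked after the values were seen. Of the 7 it was the most frequent among the lower genes, and also over all windows. CACCTG is the sequence that repressors of the Snail and Zeb families bind in known epithelial promoters. It lay in a window of 11 of the 15 lower genes (73.3%), of 0 of 6 higher genes and of 3 of 14 genes not called (21.4%). Of all 17642 genes tested that had a window, 22.5% held it, and of the genes lower in progenitors also 22.5%. The windows of the 15 had a median GC content of 60.7%, against 61.3% for all lower genes, with 1.6 windows per gene, against 1.25. Of all 32851 windows of any gene, 20.2% held it. The other 6 motifs were AACCGGTT, the looser AACNGGTT that contains it, the HNF1 core GTTAAT, the longer HNF1 palindrome that contains it, CAAAGTCCA and TATAAA. Each lay in 0 to 2 of the 15. Over all windows they were rarer than CACCTG, at 0.146%, 2.09%, 7.1%, 0.00913%, 0.475% and 13.6% in this order. Their low counts among the 15 are therefore not a contrast to CACCTG. A match is a description of letters, not of a bound site.

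Below are the stretches around a start of 4 of the lower genes that hold the motif, for the claudin with the largest fall, a claudin of tight epithelia, occludin and the Crumbs gene. They run 5′ to 3′ on the strand of the gene with CACCTG, or its reverse complement CAGGTG, in capitals: Cldn6 at chr17:23679115-23679394 (plus strand), Cldn4 at chr5:134946905-134947184 (minus), Ocln at chr13:100552469-100552748 (minus) and Crb3 at chr17:57061981-57062260 (plus).
Cldn6: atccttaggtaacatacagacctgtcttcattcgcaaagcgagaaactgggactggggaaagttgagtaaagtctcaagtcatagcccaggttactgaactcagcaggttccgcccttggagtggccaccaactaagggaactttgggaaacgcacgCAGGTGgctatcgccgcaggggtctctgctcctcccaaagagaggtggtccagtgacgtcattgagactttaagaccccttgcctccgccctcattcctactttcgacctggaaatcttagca
Cldn4: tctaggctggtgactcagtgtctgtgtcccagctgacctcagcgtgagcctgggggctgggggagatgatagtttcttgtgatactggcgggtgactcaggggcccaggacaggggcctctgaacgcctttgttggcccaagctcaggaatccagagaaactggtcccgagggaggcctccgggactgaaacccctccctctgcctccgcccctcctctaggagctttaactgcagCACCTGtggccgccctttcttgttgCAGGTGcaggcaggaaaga
Ocln: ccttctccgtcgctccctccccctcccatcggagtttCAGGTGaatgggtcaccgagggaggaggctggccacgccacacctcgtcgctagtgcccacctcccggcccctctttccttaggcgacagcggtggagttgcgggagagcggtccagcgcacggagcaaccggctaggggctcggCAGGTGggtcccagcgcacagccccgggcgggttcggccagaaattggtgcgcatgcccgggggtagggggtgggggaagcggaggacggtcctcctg
Crb3: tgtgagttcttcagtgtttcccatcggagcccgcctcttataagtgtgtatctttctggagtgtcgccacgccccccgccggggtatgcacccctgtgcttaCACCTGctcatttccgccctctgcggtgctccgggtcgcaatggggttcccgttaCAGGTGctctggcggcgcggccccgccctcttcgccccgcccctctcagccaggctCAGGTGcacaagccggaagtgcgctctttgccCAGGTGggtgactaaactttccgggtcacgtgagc

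The Crb3 stretch holds 4 matches and the Cldn4 stretch 2 that flank the start, 14 bases before it and 12 after. Crb3 and Marveld2 each have a pair of starts so close together that the same matches are counted from both. Patj held 3 matches between 19 bases before and 38 after its start.

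**Figure D3:**
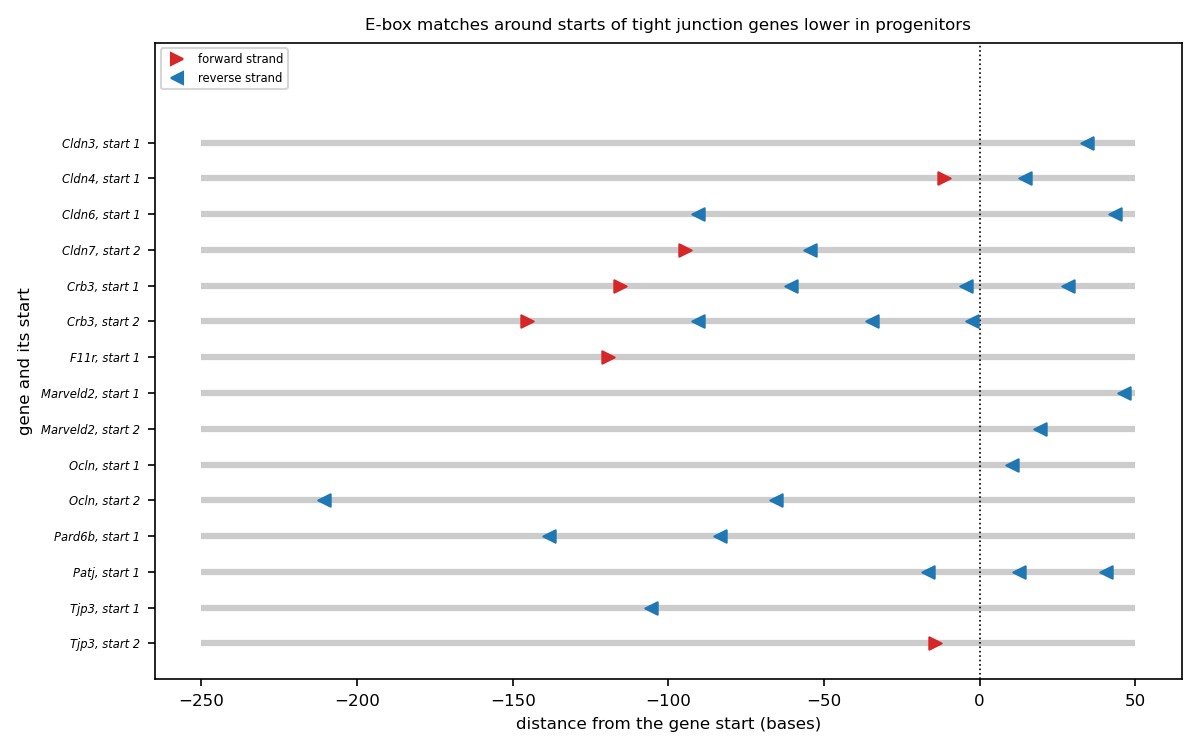
Position of each CACCTG match (red, forward strand; blue, reverse strand) in the windows of the 11 genes lower in progenitors that hold one; the x axis is distance from the gene start in bases, grey bars are windows of 300 bases, and windows without a match are not drawn. Matches lie on both sides of the start.

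Set against ESCs, where the protocol began, 19 of the 47 genes were called in progenitors (34.4% of all genes), 12 of them lower (19.6%) and 7 higher (14.8%). This comparison shares its progenitor arrays with the last one. Cldn4 (log2 fold change -2.13), Cldn6 (-2.12), Pard6b (-1.29), Crb3 (-1.28), Tjp3 (-1.23) and Marveld2 (-1.17) were among the genes lower by more than 2-fold. Cldn6 measured 7.49, 6.99 and 5.25 in progenitors, against 7.38, 9.32 and 9.38 in ESCs; the groups overlapped because ESC replicate 1, from batch 1, was low. Without that array the log2 fold change of Cldn6 was -2.90, and without progenitor replicate 3 it was -1.40. Cldn1, the claudin of the epidermal barrier and of parietal cells of the glomerulus, rose. It measured 6.49, 6.39 and 6.91 in progenitors, against 5.33, 5.21 and 5.39 in ESCs (log2 fold change 1.29 ± 0.27 SE, adjusted p = 0.000519 by limma). Cldn11 and Jam3 were higher by 2.44 and 1.09, while Jam2 measured 9.96, 9.01 and 9.85 in progenitors, against 9.80, 9.62 and 9.31 in ESCs, and was not called. Fitted on the arrays of these groups alone, 10 genes were called.

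Part of the set was higher again in organoids. In 8D organoids 13 of the 47 genes were called against progenitors (27.7%, against 19.4% of all genes), 10 of them higher (21.3%, against 11.7%) and 3 lower (6.38%, against 7.69%). These differences use the same progenitor arrays as the ones above, so a low progenitor array enters both.

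Pard6b measured 8.26, 7.24 and 7.89 in 8D organoids, against 6.64, 6.76 and 5.72 in progenitors (log2 fold change 1.32 ± 0.29 SE, adjusted p = 0.00221). Cldn5, the claudin of the endothelial barrier, measured 5.34, 5.46 and 5.61 in 8D organoids, against 4.38, 4.49 and 4.49 in progenitors. Its arrays were close together in both groups, and it rose by 1.03 ± 0.18 SE (adjusted p = 0.000262) over progenitor values that were not above background. Beside it, 5 of 8 endothelial markers rose, among them Kdr (2.69) and Cdh5 (1.73), and 1, Emcn, fell. The part of endothelial cells in the Cldn5 difference was not tested.

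Cldn6 measured 8.88, 7.46 and 8.89 in 8D organoids, against 7.49, 6.99 and 5.25 in progenitors. The groups overlapped, and the call (log2 fold change 1.80 ± 0.47 SE, adjusted p = 0.0085) was lost without progenitor replicate 3 (adjusted p up to 0.11) or 8D replicate 1. Cgnl1 measured 7.28, 7.05 and 8.08 in 8D organoids, against 6.65, 6.56 and 6.16 in progenitors (log2 fold change 0.98), and its call was lost without progenitor replicate 3 or 8D replicate 3 (adjusted p = 0.0967 to 0.124). Cgn (0.71), Marveld2 (0.65), Cldn12 (0.56), Marveld3 (0.55) and Tjp1 (0.42) were the smaller increases; of these, Cldn12, a claudin found in many tissues, kept its call without any 1 array. The other epithelial genes rose in parallel, 9 of 12 called higher. Cldn3, Cldn4, Cldn7, Cldn9, Crb3, Patj, F11r and Ocln, all lower in progenitors than in IM cells, were not called here. Cldn4, for one, measured 8.19, 8.43 and 6.96 in 8D organoids, against 7.37, 7.85 and 6.09 in progenitors.

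Jam2 was the main gene lower in 8D organoids. It measured 8.23, 9.18 and 7.50 in 8D organoids, against 9.96, 9.01 and 9.85 in progenitors, groups that overlapped (log2 fold change -1.27, adjusted p = 0.0121). Its call was lost without progenitor replicate 3 or 8D replicate 3 (adjusted p = 0.0578 to 0.0933) and in batch 2 arrays alone (log2 fold change -1.12, adjusted p = 0.0602). Cldn18 (-0.89) and Cldn15 (-0.85) went back toward background, both mainly through progenitor replicate 2, without which their adjusted p were 0.396 and 0.46. The count of 13 was 6 without 8D replicate 1, 8 without progenitor replicate 2 or 3, and 9 without 8D replicate 3. On the 6 compared arrays alone it was 2.

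**Figure D4:**
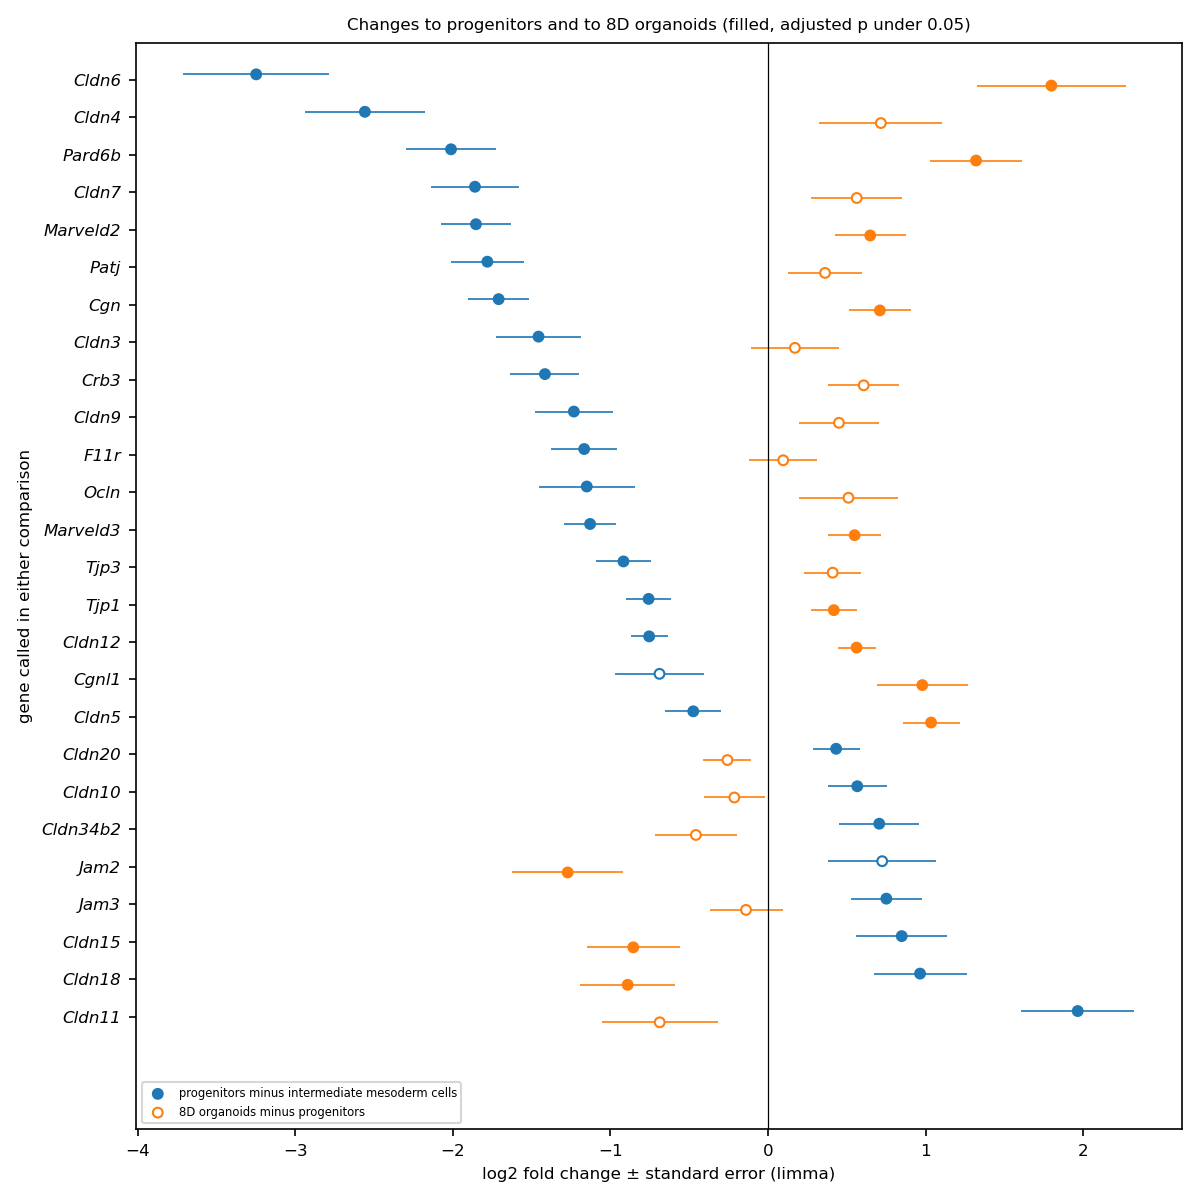
Log2 fold change with its standard error from limma for genes called in either comparison; blue, progenitors minus IM cells, orange, 8D organoids minus progenitors, filled where the adjusted p is under 0.05. Genes such as Pard6b and Cldn6 lie far left in blue and right in orange; both comparisons use the same 3 progenitor arrays, 3 arrays per group.

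Longer organoid culture changed few of these genes. Between 14D and 8D organoids limma called 0 of the 47 (2.07% of all genes, 1.63% higher and 0.442% lower), with 6 at an unadjusted p under 0.05. The count was 2 with array weights and 2 without 8D replicate 2, and 0 under the other settings run. Between 21D and 8D organoids 6 were called (11.5% of all genes), 3 higher (5.95%) and 3 lower (5.54%). Cldn8, which forms a barrier and chloride path in the collecting duct together with Cldn4, measured 4.99, 5.04 and 5.07 in 8D organoids, 5.62, 5.89 and 6.01 in 14D organoids, and 5.94, 7.07 and 6.65 in 21D organoids. Every 14D and 21D array was above every 8D array, but Cldn8 was not above background in 8D organoids (1 of 3 arrays over the gauge). The log2 fold change in 21D against 8D organoids was 1.52 ± 0.25 SE (2.87-fold, adjusted p = 0.000402), and this call was kept without any 1 array. Of 4 collecting duct markers none was called in this comparison.

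Cldn1 measured 5.58, 6.88 and 6.52 in 8D organoids, 7.74, 6.76 and 6.80 in 14D organoids, and 7.39, 7.19 and 7.16 in 21D organoids. The 21D arrays all lay above the 8D arrays (log2 fold change 0.92, adjusted p = 0.0259), but the call was lost without 8D replicate 1 or 21D replicate 1 or 2 (adjusted p = 0.0678 to 0.24). Cldn18 was higher by 0.96, and Pard6b and Cldn20 were among the lower genes, with log2 fold changes of -0.98 and -0.48. Pard6b measured 8.26, 7.24 and 7.89 in 8D organoids, 6.98, 6.84 and 6.88 in 14D organoids, and 6.73, 6.46 and 7.26 in 21D organoids, so that its 21D arrays overlapped with 8D replicate 2. The count of 6 was 1 without 8D replicate 1 or 21D replicate 2, 2 without 21D replicate 1, 3 without 8D replicate 3, and 1 on the 6 compared arrays alone. Cldn8 was the gene called in each of these fits that kept 1.

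Embryonic kidneys were the tissue that the cultures were meant to approach. In the following the 6 arrays of E12.5 and E13.5 kidneys are given as 1 group, and the fold changes are against the mean of both stages. Of the 47 genes, 23 were called between progenitors and embryonic kidneys (48.9%, against 34.2% of all genes), 19 lower in progenitors (40.4%, against 20%) and 4 higher (8.51%, against 14.2%). Between 8D organoids and embryonic kidneys 11 were called (23.4%, against 21.2%), 9 lower in organoids (19.1%, against 12%) and 2 higher (4.26%, against 9.11%). Both comparisons share the kidney arrays.

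Cldn8 measured 5.29, 5.09 and 4.43 in progenitors and 4.99, 5.04 and 5.07 in 8D organoids, against a lowest, median and highest value of 8.96, 9.11 and 9.49 in embryonic kidneys. The groups were far apart, with log2 fold changes of -4.20 ± 0.22 SE for progenitors and -4.17 ± 0.22 SE for 8D organoids (adjusted p = 2.23e-12 and 5.92e-12). Cldn8 was not above background in either culture group. Cldn9 measured 6.01, 6.04 and 6.24 in 8D organoids, against 7.80, 8.30 and 8.67 (lowest, median, highest) in embryonic kidneys. Its log2 fold changes were -2.66 in progenitors and -2.21 in 8D organoids. Cldn5 measured 5.34, 5.46 and 5.61 in 8D organoids, against 6.10, 6.88 and 7.15 in embryonic kidneys, with log2 fold changes of -2.35 in progenitors, where it was not above background, and -1.31 in 8D organoids. Of 8 endothelial markers 6 were lower in progenitors and 2 in 8D organoids, and the part of this in the Cldn5 values was not tested. Cldn3 was lower by -1.30 and -1.13 on the log2 scale and measured 6.92, 7.06 and 6.78 in 8D organoids, against 7.45, 8.09 and 8.61 in embryonic kidneys. Cldn1 was lower too, by log2 fold changes of -0.97 in progenitors and -1.26 in 8D organoids, where it measured 5.58, 6.88 and 6.52, against 7.02, 7.70 and 8.07 in embryonic kidneys.

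A pair of claudin-34 genes, whose roles are not well known, also separated embryonic kidneys from progenitors and 8D organoids. Cldn34c2 measured 5.40, 4.95 and 5.15 in 8D organoids, against 6.11, 6.31 and 7.07 in embryonic kidneys (log2 fold change -1.22, adjusted p = 3.89e-06). Cldn34c3 measured 2.01, 2.45 and 2.94 in 8D organoids, against 4.63, 5.14 and 6.16 in embryonic kidneys (log2 fold change -2.75, adjusted p = 1.13e-05), although it was above background in no group. The claudin-34 genes are close copies of each other, and whether their probes tell them apart was not tested. Their log2 fold changes in progenitors were -1.25 and -2.04.

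Cldn6 was called between progenitors and embryonic kidneys but not between 8D organoids and embryonic kidneys. It had a log2 fold change of -2.11 in progenitors against embryonic kidneys (adjusted p = 0.000237; -1.35 without progenitor replicate 3) and was not called in 8D organoids, which measured 8.88, 7.46 and 8.89, against 8.18, 8.77 and 8.99 in embryonic kidneys. In progenitors Marveld2 (log2 fold change -1.39), Cldn4 (-1.36), Cldn7 (-1.17) and Ocln (-1.15) were lower than in embryonic kidneys as well, and the 4 nephron progenitor markers Six2, Wt1, Pax2 and Sall1 were all lower. In 8D organoids Marveld2 was the 1 of these called (-0.74), a call lost without 8D replicate 2 (adjusted p = 0.0797). Without progenitor replicate 3 the calls of Cldn4, Crb3 and Pard6b against embryonic kidneys were lost (adjusted p = 0.0636, 0.0693 and 0.247), as were those of Cgnl1 and Marveld3, and 20 of the 47 genes were called.

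Jam2 was the outstanding gene in the other direction. It measured 9.96, 9.01 and 9.85 in progenitors and 8.23, 9.18 and 7.50 in 8D organoids, against 6.27, 6.39 and 6.49 (lowest, median, highest) in embryonic kidneys. All culture arrays lay above all kidney arrays, by 9.19-fold in progenitors (log2 fold change 3.20 ± 0.30 SE, adjusted p = 1.75e-08) and with a log2 fold change of 1.93 in 8D organoids (adjusted p = 4.82e-05). The pluripotency markers Nanog, Sox2 and Zfp42 were likewise higher in progenitors and in 8D organoids than in embryonic kidneys; their part in the Jam2 difference was not tested. Pard3 was higher in 8D organoids by 0.57, at 8.89, 8.87 and 9.14, against 8.27, 8.38 and 8.52 in embryonic kidneys.

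Between E13.5 and E12.5 kidneys limma called 0 of 23986 genes (0%), and 2 of the 47 genes had an unadjusted p under 0.05, Cldn5 (log2 fold change 0.54) and Cldn1 (0.60). Under all other settings run, 0 of the 47 were called, and of all genes at most 5, with array weights. Cldn5 measured 7.15, 7.06 and 7.00 in E13.5 kidneys, against 6.67, 6.10 and 6.76 in E12.5 kidneys. These values did not overlap.

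Adult kidneys differed from embryonic kidneys in most of the set. Of the 47 genes 30 were called (63.8%, against 49.7% of all genes), 17 higher in adult kidneys (36.2%, against 24.3%) and 13 lower (27.7%, against 25.4%). Higher were 2 of 3 claudins of the proximal tubule and thin limb and all 3 of the thick ascending limb, with Cldn14 only at background values. Lower were both claudins of embryonic epithelia and 3 of 4 of the collecting duct and other tight epithelia.

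Cldn10, which forms anion paths in the proximal tubule and cation paths in the thick ascending limb as different isoforms, measured 9.06, 9.09 and 9.80 in adult kidneys, against 4.21, 4.61 and 4.74 (lowest, median, highest) in embryonic kidneys. The difference of 27.2-fold was the largest of the set (log2 fold change 4.77 ± 0.16 SE, adjusted p = 6.23e-18), but the embryonic values were not above background, nor were those of Cldn2 and Cldn16. Cldn2, the cation and water channel of the proximal tubule, measured 6.42, 6.56 and 6.24 in adult kidneys, against 3.56, 4.05 and 4.38 in embryonic kidneys (log2 fold change 2.39, adjusted p = 7.34e-10). Cldn16 and Cldn19 act together in calcium and magnesium reabsorption in the thick ascending limb. Cldn16 measured 6.03, 6.19 and 7.25 in adult kidneys, against 4.58, 4.66 and 4.76 in embryonic kidneys (log2 fold change 1.81). Cldn19 measured 8.18, 7.46 and 8.38 in adult kidneys, against 5.72, 5.90 and 5.98 in embryonic kidneys (log2 fold change 2.14). No adult array overlapped an embryonic one for these 4 genes. Cldn14, which limits calcium reabsorption in the same segment, and Cldn17, an anion channel, were above background in no group. The Cldn14 call (log2 fold change 0.26, adjusted p = 0.0496) was lost in 13 of 17 alternatives run, among them batch 2 arrays alone (0.24, adjusted p = 0.102). The markers of these segments moved with them, 5 of 5 proximal tubule genes (Slc34a1 by 7.45 on the log2 scale) and 3 of 3 thick ascending limb genes (Umod by 6.99), and the share of each segment in the tissue was not measured.

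Cgnl1 measured 9.16, 9.67 and 8.84 in adult kidneys, against 7.11, 7.22 and 7.36 in embryonic kidneys (log2 fold change 1.98 ± 0.25 SE, adjusted p = 1.92e-07). The polarity gene Patj measured 8.26, 8.76 and 7.85 in adult kidneys, against 6.44, 6.66 and 6.77 in embryonic kidneys, and differed by 1.61. Cldn15 (log2 fold change 1.41), Marveld3 (1.37), Pard6b (1.11), Cgn (0.93), Cldn12 (0.89) and Crb3 (0.80) were higher as well. Marveld3 measured 7.09, 7.18 and 7.30 in adult kidneys, against 5.46, 5.73 and 6.10 in embryonic kidneys, and was highest in adult kidneys of all groups.

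On the other side, Cldn6 measured 5.16, 5.15 and 4.92 in adult kidneys, against 8.18, 8.77 and 8.99 in embryonic kidneys. Adult kidneys were the 1 group in which Cldn6 was not above background (log2 fold change -3.64 ± 0.40 SE, adjusted p = 3.04e-08). Cldn9 measured 6.39, 6.49 and 6.57 in adult kidneys, against 7.80, 8.30 and 8.67 in embryonic kidneys (log2 fold change -1.82). Cldn11 measured 6.54, 6.57 and 7.03 in adult kidneys, against 8.21, 8.99 and 9.19 in embryonic kidneys (log2 fold change -2.02). Cldn34c3 measured 3.99, 3.01 and 4.11 in adult kidneys, against 4.63, 5.14 and 6.16 in embryonic kidneys, and was called lower. Over the alternatives run its log2 fold change lay between -1.71 and -1.16, but it was above background in no group. Cldn34c2 was called lower in adult kidneys too. Cldn5, Cldn4, Cldn7 and Cldn3 were lower also, with log2 fold changes of -1.73, -1.35, -1.05 and -0.90, and Cldn5 and Cldn7 were not above background in adult kidneys. Of 8 endothelial markers, 2 were higher in adult than in embryonic kidneys, Emcn and Flt1, and 1, Cdh5, was lower. Tjp1, the most widely used zonula occludens scaffold, measured 9.00, 8.84 and 8.72 in adult kidneys, against 10.24, 10.44 and 10.57 in embryonic kidneys (log2 fold change -1.62 ± 0.12 SE, adjusted p = 3.8e-11), the lowest of the 10 groups. Cldn8, in contrast, measured 9.49, 8.88 and 9.44 in adult kidneys, against 8.96, 9.11 and 9.49 in embryonic kidneys, and was not called. All 10 mesenchymal genes were lower in adult kidneys; their part in these differences was not tested.

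**Figure D5:**
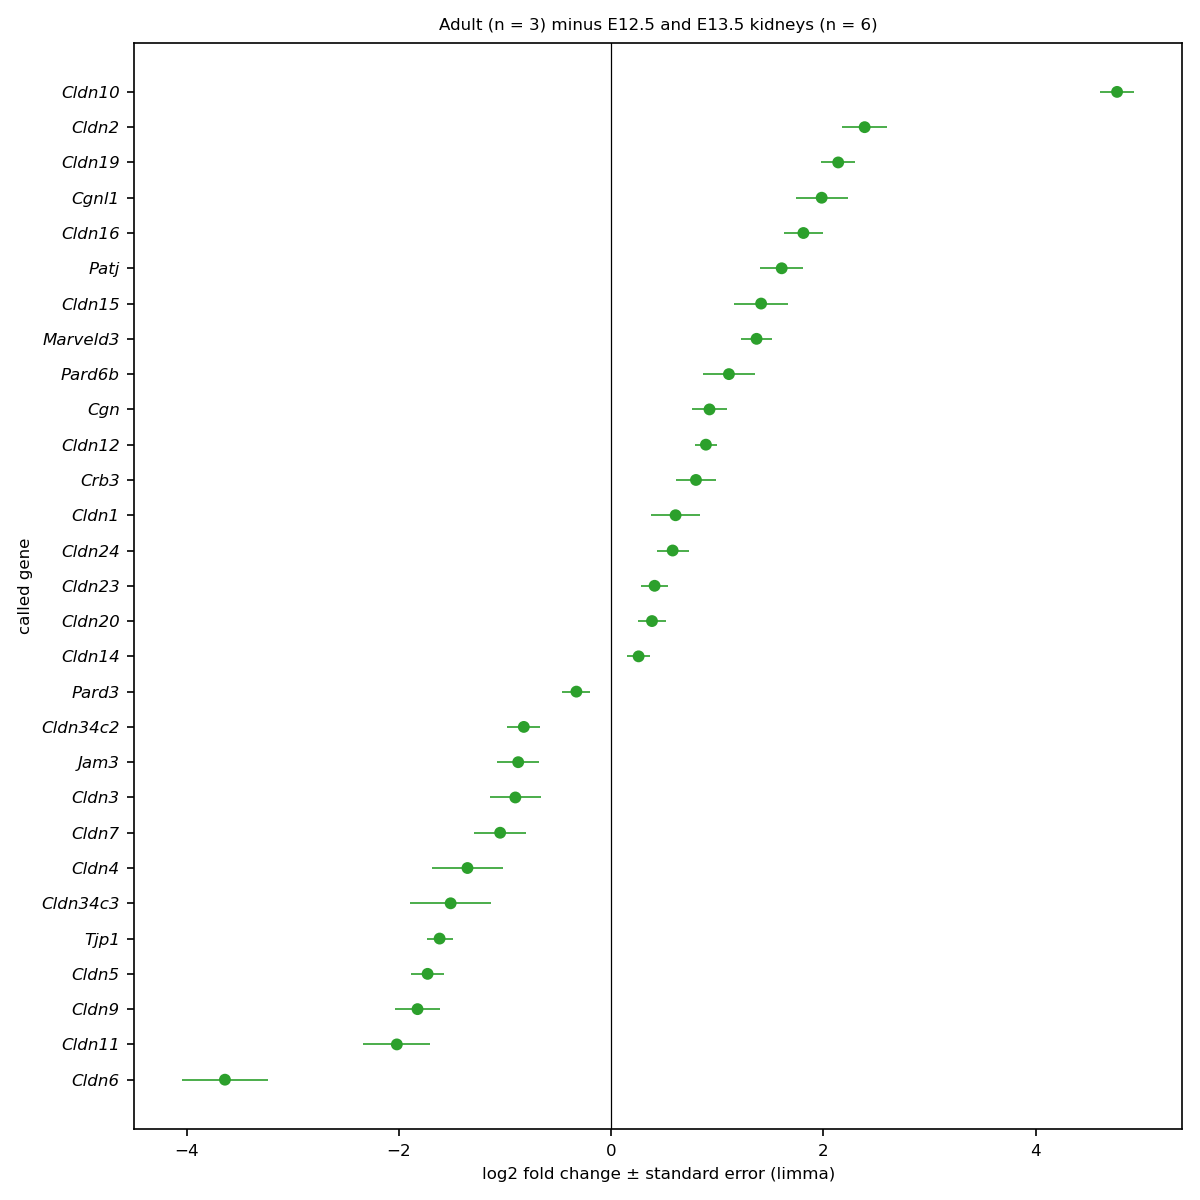
Log2 fold change with its standard error from limma, adult minus embryonic kidneys, for 29 of the 30 called genes; points are fold changes over 3 adult and 6 embryonic arrays. Cldn10 stands at 4.77 on the right and Cldn6 at -3.64 on the left.

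Organoids of both ages were also set against adult kidneys. In 8D organoids 23 of the 47 genes were called (48.9%, against 44.8% of all genes), 17 lower than in adult kidneys (36.2%, against 22.1%) and 6 higher (12.8%, against 22.7%). In 21D organoids 27 were called (57.4%, against 48.4%), 21 lower (44.7%, against 24%) and 6 higher (12.8%, against 24.4%). The adult arrays serve both comparisons and the one above.

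Of the claudins of the proximal tubule, thin limb and thick ascending limb, 4 were lower in organoids of both ages, and Cldn14 and Cldn17 were not called. Of those of tight epithelia Cldn8 was lower, and Cldn3, Cldn4 and Cldn7 were not called. Cldn10 measured 4.93, 4.62 and 4.72 in 21D organoids, against 9.06, 9.09 and 9.80 in adult kidneys (23.6-fold, log2 fold change -4.56 ± 0.19 SE, adjusted p = 3.74e-16). Cldn2 measured 3.73, 4.24 and 4.89 in 21D organoids, against 6.42, 6.56 and 6.24 in adult kidneys (log2 fold change -2.12). Cldn16 measured 4.61, 4.53 and 4.55 in 21D organoids, against 6.03, 6.19 and 7.25 in adult kidneys (log2 fold change -1.93). Cldn19 measured 5.78, 5.74 and 5.37 in 21D organoids, against 8.18, 7.46 and 8.38 in adult kidneys (log2 fold change -2.38). In 8D organoids the log2 fold changes of these 4 genes were -4.60, -2.40, -2.09 and -2.21. Cldn10, Cldn2 and Cldn16 were above background in adult kidneys alone of the 10 groups, and none of the 3 thick ascending limb markers was above background in any organoid group. Of the 5 proximal tubule markers, 4 were above background in 8D organoids and 3 in 14D and in 21D organoids. All 5 were lower in 8D and 21D organoids than in adult kidneys. Cldn8 measured 5.94, 7.07 and 6.65 in 21D organoids, against 9.49, 8.88 and 9.44 in adult kidneys, a log2 fold change of -2.71 ± 0.25 SE at 21D, set beside -4.24 ± 0.25 SE at 8D. Cgnl1 (-2.13), Patj (-1.95) and Pard6b (-1.56) were lower in 21D organoids too.

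Cldn6 measured 7.60, 7.43 and 7.83 in 21D organoids, against 5.16, 5.15 and 4.92 in adult kidneys (5.84-fold, log2 fold change 2.55 ± 0.46 SE, adjusted p = 5.67e-05), and at 8D its log2 fold change was 3.33. Jam2 measured 9.06, 8.75 and 8.89 in 21D organoids, against 6.68, 6.09 and 6.95 in adult kidneys (log2 fold change 2.33, adjusted p = 3.68e-06). Cldn11 measured 7.85, 8.28 and 8.09 in 21D organoids, against 6.54, 6.57 and 7.03 in adult kidneys (log2 fold change 1.36). Tjp1 measured 9.98, 10.28 and 10.27 in 21D organoids, against 9.00, 8.84 and 8.72 in adult kidneys (log2 fold change 1.33). The organoid arrays lay above the adult arrays for all 4 genes. Pard3 (0.82) and Jam3 (0.67) completed the 6 genes higher in 21D organoids, and the Jam3 call was lost without 21D replicate 1 or 2 or adult replicate 2 (adjusted p = 0.0513 to 0.116). Of the lower calls at 21D, those of Cgn, Cldn9, Cldn24, Cldn34c2, Cldn34c3 and F11r were each lost without 1 of 3 or 4 arrays, and 22 to 25 of the 47 genes were called with 1 array left out.

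A wider list of 33 other tight junction and polarity genes, of which 31 were measured, was read in the same fits. Between progenitors and IM cells 18 of the 31 were lower (15.9% of all genes were) and 3 higher (10.7% of all genes). Their median log2 fold change was -0.58, beside -0.04 for the 47 genes and 0.02 for all genes. Among the lower ones were Lsr and Ildr1, which act at the meeting points of 3 cells, the lateral polarity genes Llgl1, Llgl2 and Scrib, and the kinase genes Prkci and Prkcz of the Par complex. Ildr2 went the other way from Lsr and Ildr1, as 1 of the 3 higher genes. Between 8D organoids and progenitors 11 of the 31 were higher (11.7% of all genes) and 4 lower (7.69%). Prkci, Lsr, Ildr1, Llgl1, Llgl2 and Scrib were among the higher ones, and Ildr2 was among the 4 lower ones. Between adult and embryonic kidneys 9 of the 31 were higher (24.3% of all genes) and 14 lower (25.4%).

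The remaining genes of the set gave little signal. The 9 called in no comparison were Cldn13, Cldn17, Cldn22, Cldn34a, Cldn34b1, Cldn34b3, Cldn34b4, Cldn34c4 and Cldn34d. Of these, Cldn13, a claudin that humans lack, was above background in 7 groups with group means within 0.34 of each other, and Cldn22 in IM cells alone, with group means within 0.36. The claudin-34 genes not called anywhere had group means between 1.56 and 4.87, under the gauge in every group. Cldn23 was called once, higher in adult than in embryonic kidneys by 0.41, and Cldn14, Cldn20 and Cldn24 were called with changes under 2-fold at values under the gauge.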

How the data were processed

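The authors hybridised total RNA to Affymetrix Mouse Gene 2.0 ST arrays and deposited log2 intensities after RMA (background correction, quantile normalisation and summary of probes), computed with oligo and limma; which versions and annotation they used, and how probe sets of 1 gene were merged, is not given in the sources used here. The deposited log2 values were used as they are. Array medians lay between 5.76 and 5.94, and the number of arrays, not a depth, limits the precision.

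Groups and batches came from the labels. limma 3.58.1 in R 4.3.3 was fitted to all 23986 genes and 30 arrays with a mean per group and a batch term (19 residual degrees of freedom), and moderated p-values were adjusted by Benjamini-Hochberg over all genes of each of 13 comparisons. For embryonic kidneys the 2 stage means were averaged with equal weight. The fit was first tested on simulated data. Named were up to 8 called genes with the largest change in each direction per comparison, with array values for genes that changed at least 2-fold, and up to 3 genes of each other list. The results of 1 gene of the set are not reported here, and it is not drawn, but counts over the 47 genes include it. The genes, the lists and the E-box were chosen with earlier results of these data known. Alternatives were batch 2 arrays alone, no batch term, compared groups alone, array weights, the replicate number as a block, a filter on dim genes, quantile normalisation, a trended robust prior, embryonic kidneys as 1 group, and leaving out each array. Promoter windows were read with Python 3.11.15.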

Additional observations from a re-analysis of the deposited data

Results flagged for a closer look

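Among the 6 embryonic kidney arrays, 2 of the 47 genes had 1 array far from the others by Dixon's test at the 95% level, which by chance picks about 1 in 20 such groups. Cldn19 measured 5.72 in E12.5 replicate 3, against 5.89 to 5.98 on the other 5 arrays. Tjp3 measured 6.43 in E13.5 replicate 2, against 6.28 to 6.33 on the others. The other groups hold 3 arrays each and were not tested.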

How the results depend on the processing

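Of 186 calls (a gene in a comparison), 118 were kept under every alternative run and 0 changed sign. In batch 2 arrays alone 2 of the 47 genes were called in mesoderm cells against ESCs, in place of 5. Fitted on the compared groups alone, which leaves few residual degrees of freedom, the counts were 8 in mesoderm cells against ESCs, 15 in progenitors against IM cells, 10 in progenitors against ESCs, 2 in 8D organoids against progenitors, and 1 in 21D against 8D organoids. Array weights gave 9 in mesoderm cells against ESCs, 9 in IM cells against mesoderm cells, and 2 in 14D against 8D organoids. Quantile normalisation gave 1 in IM cells against mesoderm cells. For these shifts the cause was not tested. Leaving out 1 array at a time, the counts ranged from 2 to 7 for mesoderm cells against ESCs, 0 to 3 for IM cells against mesoderm cells, 20 to 24 for progenitors against IM cells, 15 to 19 for progenitors against ESCs, 6 to 16 for 8D organoids against progenitors, 0 to 2 for 14D against 8D organoids, and 1 to 6 for 21D against 8D organoids. They ranged from 19 to 24 for progenitors and 10 to 12 for 8D organoids against embryonic kidneys, 21 to 24 for 8D and 22 to 25 for 21D organoids against adult kidneys, 26 to 31 for adult against embryonic kidneys, and were 0 for E13.5 against E12.5 kidneys. Whether the replicate numbers pair the samples is not known, and correlations over 3 arrays a group cannot decide it. In none of the 10 comparisons checked, which leave out the 3 against embryonic kidneys, did all 3 numbers correlate above 0.1. With the replicate number as a block the counts were 24 for progenitors against IM cells and 10 for 8D organoids against progenitors. They were 12 for 8D organoids and 29 for adult kidneys against embryonic kidneys, and as in the fit without the block elsewhere. The filter on dim genes removed 11 of the 47 genes. With 3 arrays a group, changes near the spread between arrays, widest in progenitors, cannot be resolved, and genes under the background gauge carry little signal to compare.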
